A study of Mus musculus with 8 samples.

Results

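The genes described here are 9 genes of the epidermal barrier lipid route, chosen by name: Cers3, Cers4, Elovl1, Elovl4, Abca12, Ugcg, Pnpla1, Alox12b and Aloxe3. All 9 are among the 34745 genes of the deposited table, and all 9 were among the 15684 genes with enough reads to be tested. RNA sequencing was done on excised skin lesions of 16-week-old mice labelled male, in 2 groups of 4 libraries. The NcstnΔKC group was Ncstn flx/flx; Krt14 CreER+/-, a genotype in which tamoxifen activates a Cre recombinase driven by the keratin 14 promoter of basal keratinocytes. It received tamoxifen by gavage from 8 weeks of age, at 20 mg/kg per day for 5 days and then every 10 days. The normal group received corn oil. The protocol gives the normal mice that same floxed, Cre-carrying genotype, whereas their genotype label reads wildtype. Effects of tamoxifen and of the deletion cannot be told apart in this design. The labels number the libraries as replicates and do not say whether each is 1 animal or a pool, so p-values measure the spread between these libraries.

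The outer skin barrier is a stack of lipid sheets between dead keratinocytes, and its main lipids are ceramides with unusually long fatty acids. Elongases lengthen the fatty acid, a ceramide synthase joins it to a sphingoid base, and further enzymes esterify it with linoleate to make acylceramide. Glucosylation prepares the lipid for loading into lamellar granules, and after secretion a pair of lipoxygenases oxidises the linoleate so that the ceramide can be bound to the cornified envelope. In humans, inherited loss of several of these enzymes causes forms of ichthyosis. In mouse skin, sebaceous glands and hair follicles also make long fatty acids and ceramides, so whole-tissue RNA holds more than the epidermis.

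Total counts were 11881506 to 12893174 in NcstnΔKC libraries and 5835422 to 8663753 in normal libraries. Ncstn, which encodes the γ-secretase subunit nicastrin, had 57.7 ± 6.86 counts scaled to library size (counts per 1000000, CPM) in NcstnΔKC libraries and 60.6 ± 1.54 CPM in normal libraries (SD, n = 4 each), with a log2 fold change of -0.07 ± 0.12 (SE) and an adjusted p of 0.663. Adjusted p-values here are from edgeR's quasi-likelihood test with Benjamini-Hochberg adjustment over all genes tested, and fold changes are NcstnΔKC over normal. Counts per whole gene cannot show a loss of part of the exons, so this does not check the labels, and NcstnΔKC below means the libraries so labelled. Xist, the RNA of the inactive X chromosome in female cells, had 22304 to 37109 counts in replicates 3 and 4 of each group and 4 to 9 counts in replicates 1 and 2 of each group, although all mice are labelled male. Results are therefore also given for these library pairs alone. NcstnΔKC replicate 1 had the highest CPM of its group for 9 of the 9 genes, and results without it are given too.

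Markers of other cells moved with the groups. Summed over 12 basal keratinocyte markers such as Krt5 and Krt14, NcstnΔKC libraries had 14371 to 18493 CPM and normal libraries 9670 to 13283 CPM, with 9 genes higher and 2 lower. Over 10 markers of differentiated keratinocytes such as Krt10 and Lor, the sums were 4338 to 8749 CPM in NcstnΔKC libraries and 7196 to 13571 CPM in normal libraries, with 2 higher and 4 lower. Over 7 sebocyte markers, NcstnΔKC libraries summed to 91.0 to 407 CPM and normal libraries to 537 to 2069 CPM, with 0 higher and 4 lower. Over 12 hair follicle markers, of which 9 were tested, NcstnΔKC libraries summed to 378 to 699 CPM and normal libraries to 2208 to 38945 CPM, with 9 lower and Krt25 at 0 counts in all NcstnΔKC libraries. The upper end was normal replicate 2 alone, and the other normal libraries summed to 2208 to 2810.5 CPM. The 8 skeletal muscle markers were all lower, with sums of 753 to 7350 CPM in NcstnΔKC libraries and 6508 to 64372 CPM in normal libraries, and of 7 adipocyte markers 5 were lower, with 44.8 to 302 CPM in NcstnΔKC libraries and 353 to 1045 CPM in normal libraries. The muscle sum of 6508 CPM was normal replicate 1, below the 7350 CPM of NcstnΔKC replicate 1. The other normal libraries had muscle sums of 43581 to 64372 CPM. Of 10 leukocyte markers 5 were higher, with sums of 234 to 945 CPM in NcstnΔKC libraries and 256 to 464 CPM in normal libraries. No marker was at 0 in all 8 libraries. How far these cell mixtures set the values below was not tested.

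Of the 9 genes, 4 were higher in NcstnΔKC skin (Cers3, Ugcg, Abca12 and Alox12b) and 1 was lower (Cers4) at an adjusted p under 0.05. That is 5 of 9, or 55.6%, beside 44.1% of all 15684 genes tested, of which 21.4% were higher and 22.7% lower. All 5 also had a log2 fold change of at least 1 in size, which 24.9% of all genes had together with the adjusted p. For 4 of the 9, all but Alox12b among the 5, the CPM of the groups did not overlap, beside 41.6% of all genes. The median log2 fold change of the 9 was 0.61, beside -0.02 over all genes tested. Elovl1, Elovl4, Pnpla1 and Aloxe3 did not pass the test. In whole skin, fewer cells of a type and less RNA per cell cannot be told apart.

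**Figure D1:**
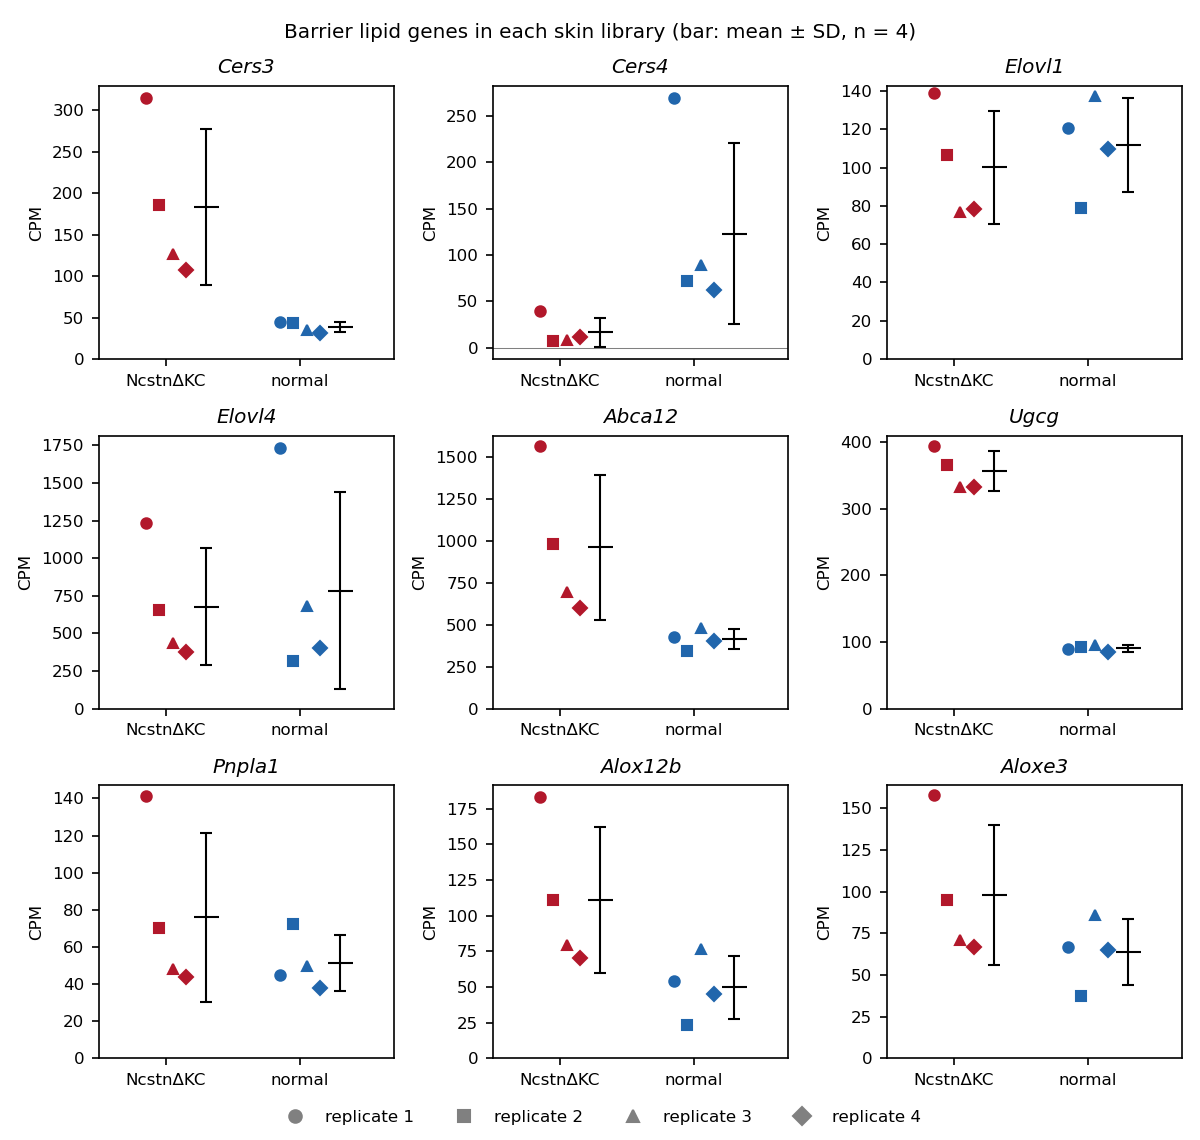
CPM (counts per 1000000, TMM-scaled) of each of the 9 genes on the vertical axis, with 1 point per library, NcstnΔKC in red on the left and normal in blue on the right, and bars at the mean ± SD (n = 4). The groups are separate for Cers3, Cers4, Abca12 and Ugcg, and NcstnΔKC replicate 1 is the highest red point in every panel.

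The stretch of 250 bases before the transcript start was searched in RefSeq promoters of mouse (GRCm38.p6), which hold 9 starts of 8 of the 9 genes. Of these windows, 4 overlap annotated exons: those of Pnpla1 and Ugcg over all 250 bases, that of Cers4 over 221 and that of Alox12b over 83. Searched on both strands were GTGGGAA, the letters bound by RBPJ, through which Notch receptors released by γ-secretase act, the AP-1 letters TGANTCA, the grainyhead letters AACNGGTT, the TATA box letters TATAAA and the CCAAT box. GTGGGAA was in 1 of the 9 windows, that of Elovl4, and in 5.42% of the 32851 mouse windows of this length. The AP-1, grainyhead and TATA box letters were in 0 of the 9 windows, beside 6.75%, 1.79% and 12.4% of all windows. CCAAT was in 2 of the 9, in one of the Elovl1 windows and that of Pnpla1, the second within annotated exon sequence, beside 33.9%. A match of letters shows no binding, and its lack says only that these letters are not in this window. Printed 5′ to 3′ on the gene's strand are the windows of Cers3 and Abca12, which were higher and whose windows overlap no annotated exon, and of Elovl4 for its match, with capitals marking the GTGGGAA letters, which read TTCCCAC on this strand from 205 to 199 bases before the start.
Cers3 chr7:66743254-66743503 plus strand: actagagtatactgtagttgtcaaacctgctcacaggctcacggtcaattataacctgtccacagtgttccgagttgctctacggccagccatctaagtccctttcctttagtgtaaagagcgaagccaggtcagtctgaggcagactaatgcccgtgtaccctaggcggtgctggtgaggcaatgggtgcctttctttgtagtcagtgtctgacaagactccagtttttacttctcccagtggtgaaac
Abca12 chr1:71414911-71415160 minus strand: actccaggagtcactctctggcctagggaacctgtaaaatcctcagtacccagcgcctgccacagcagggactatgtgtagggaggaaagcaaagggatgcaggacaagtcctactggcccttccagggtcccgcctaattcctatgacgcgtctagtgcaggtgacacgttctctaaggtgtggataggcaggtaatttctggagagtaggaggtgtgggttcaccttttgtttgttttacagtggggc
Elovl4 chr9:83806306-83806555 minus strand: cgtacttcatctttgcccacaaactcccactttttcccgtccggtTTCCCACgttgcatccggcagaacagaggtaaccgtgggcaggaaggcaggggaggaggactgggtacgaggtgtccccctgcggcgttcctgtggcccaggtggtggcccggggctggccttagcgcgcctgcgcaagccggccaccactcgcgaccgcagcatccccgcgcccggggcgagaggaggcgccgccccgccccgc

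Cers3 encodes the ceramide synthase that accepts the very long and ultra-long fatty acids of barrier ceramides. It lies on chromosome 7 (ENSMUSG00000030510, chr7:66743504-66823692, plus strand, mm10). Cers3 had 315, 185, 126 and 107 CPM in NcstnΔKC replicates 1 to 4, against 45.1, 43.1, 34.6 and 31.9 CPM in normal replicates 1 to 4. The lowest NcstnΔKC library was above the highest normal library, and replicate 1 was the highest of both groups. The means were 184 ± 93.9 CPM in NcstnΔKC libraries and 38.7 ± 6.42 CPM in normal libraries (SD, n = 4 each). Cers3 rose by 2.25 ± 0.33 (SE) on the log2 scale, or 4.75-fold, with a 95% interval of 1.49 to 3.0 and an adjusted p of 0.00114. Without NcstnΔKC replicate 1 the log2 fold change was 1.86.

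Cers4 encodes a ceramide synthase that prefers shorter acyl chains and is known in mice for a role in hair follicles and sebaceous glands. The gene is on chromosome 8 (ENSMUSG00000008206, chr8:4493026-4531680, plus strand, mm10). Cers4 had 39.7, 6.83, 8.36 and 11.4 CPM in NcstnΔKC replicates 1 to 4, against 269, 72.4, 88.7 and 62.4 CPM in normal replicates 1 to 4. Replicate 1 was the highest library of each group, yet NcstnΔKC replicate 1 was still below the lowest normal library. The means were 16.6 ± 15.5 CPM in NcstnΔKC libraries and 123 ± 97.9 CPM in normal libraries (SD, n = 4 each). Cers4 fell by 2.90 ± 0.70 (SE) on the log2 scale, or 7.46-fold, with a 95% interval of -4.48 to -1.32 and an adjusted p of 0.00975. The size rested on the replicate 1 libraries: it was -3.79 without NcstnΔKC replicate 1 and -2.11 without normal replicate 1, past the threshold both times. The summed sebocyte markers were also highest in replicate 1 of each group, with 407, 177, 108 and 91.0 CPM in NcstnΔKC replicates 1 to 4 and 2069, 537, 1113 and 876 CPM in normal replicates 1 to 4. Their part in the Cers4 difference was not tested. Cers4 also overlaps the predicted gene Gm36956 and the pseudogene Vmn2r-ps89 on the other strand, and 9.81% of its 31-base stretches occur in another annotated gene, so its reads are less certain than those of Cers3, with 0.217%.

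Within each library the ratio of Cers3 to Cers4 counts does not depend on how libraries are scaled. The log2 ratio was 2.99, 4.75, 3.91 and 3.23 in NcstnΔKC replicates 1 to 4, against -2.57, -0.75, -1.36 and -0.97 in normal replicates 1 to 4. Every NcstnΔKC library held more Cers3 than Cers4 reads, and every normal library held fewer. These counts are not corrected for gene length, so the sign of the ratio does not show which gene had more transcripts. The means were 3.72 ± 0.79 in NcstnΔKC libraries and -1.41 ± 0.82 in normal libraries (SD, n = 4 each), a difference of 5.13 (p = 0.0286 by an exact permutation test, two-sided, which with 70 arrangements can give no smaller p, and 0.0429 after adjustment over 3 ratios). Leaving out NcstnΔKC replicate 1 or 2 gave 5.38 and 4.79, each with an adjusted p of 0.0857. The groups stayed separate both times. Leaving out any other library, which leaves as many arrangements, gave an adjusted p of 0.0429. The adjusted p of this ratio also depends on the p-values of the other ratios.

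FPKM is scaled per kilobase of gene model, whose length differs between genes and need not be that of the transcript expressed. Shares and orders of genes by FPKM, here and below, therefore depend on these lengths. Cers3 made up 67.7% ± 9.33 of the summed FPKM of Cers1 to Cers6 in NcstnΔKC libraries and 31.2% ± 5.10 in normal libraries. Cers4 made up 0.946% ± 0.524 in NcstnΔKC libraries and 15% ± 8.50 in normal libraries. By this measure Cers3 was above Cers4 in every normal library too. Normal replicates 1 to 4 had 13.5, 11.3, 8.70 and 8.96 FPKM of Cers3, against 13.4, 3.13, 3.69 and 2.90 FPKM of Cers4. Their counts went the other way, at 297, 214, 245 and 245 for Cers3 and 1772, 359, 628 and 479 for Cers4. The FPKM order thus rests on the longer gene model of Cers4 and does not show which gene had more transcripts. Cers6, the synthase of shorter ceramides, followed Cers3 with 15.8% ± 3.95 in NcstnΔKC libraries and 23.4% ± 5.41 in normal libraries, and its log2 fold change of 0.41 ± 0.18 had an adjusted p of 0.0887. The family summed to 88.3 ± 26.2 FPKM in NcstnΔKC libraries and 34.6 ± 9.25 FPKM in normal libraries (SD, n = 4 each). FPKM values are scaled by library total only, unlike the CPM values above. With total-count scaling the median log2 fold change of all genes was 0.29, beside -0.02 with the scaling of the CPM values.

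**Figure D2:**
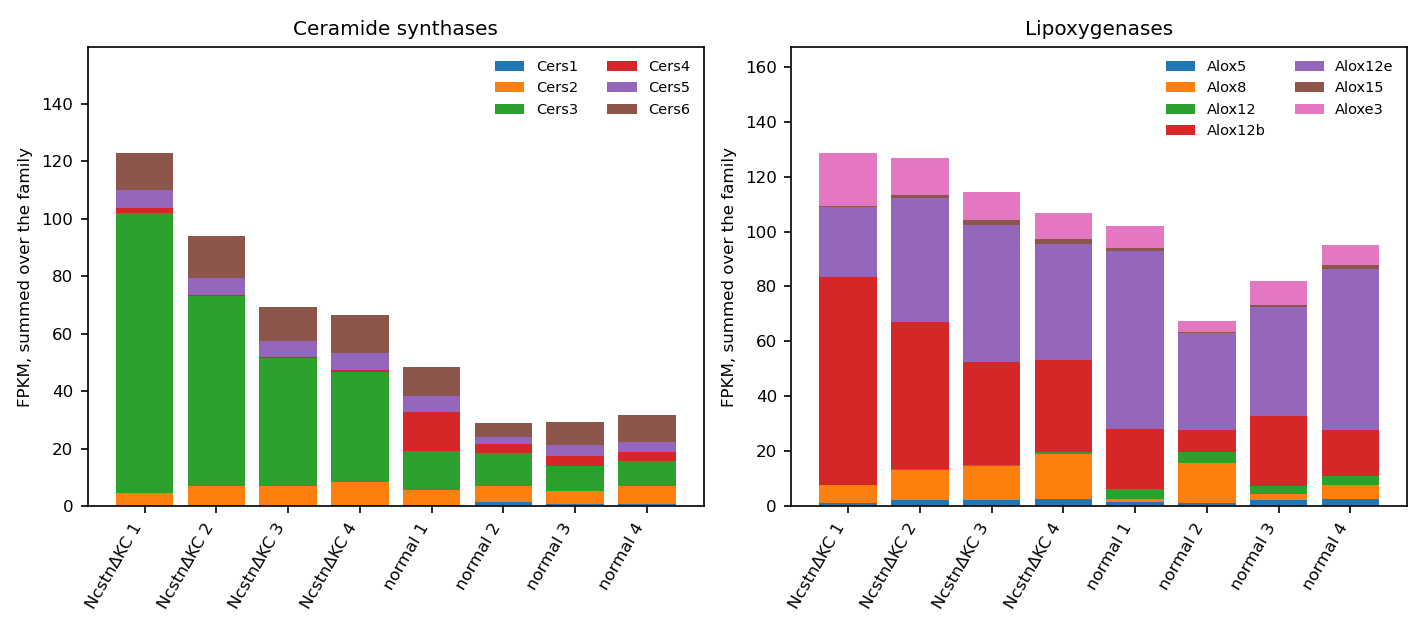
Summed FPKM (vertical axis) of the ceramide synthases (left panel) and of the lipoxygenases (right panel) in each library, NcstnΔKC replicates first, with 1 colour per gene. Cers3 fills the larger part of every NcstnΔKC bar, and Alox12e is the largest segment of all 4 normal bars on the right.

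Elovl1 elongates saturated fatty acids into the very long range, and mice without it die of a barrier defect. It lies on chromosome 4 (ENSMUSG00000006390, chr4:118428093-118432953, plus strand, mm10). Elovl1 had 139, 106, 76.6 and 78.4 CPM in NcstnΔKC replicates 1 to 4, against 121, 78.8, 138 and 110 CPM in normal replicates 1 to 4. The groups overlapped over nearly their whole range. The log2 fold change was -0.16 ± 0.23 (SE), with a 95% interval of -0.69 to 0.37 and an adjusted p of 0.608. In the libraries with Xist alone, it was -0.64 and passed the test as lower, with an adjusted p of 0.0103, and without NcstnΔKC replicate 1 and normal replicate 2 together it was -0.49 and passed as well. Over 27 alternatives, Elovl1 passed in these 2, and its adjusted p ran from 0.0103 to 0.965. In the libraries without Xist it was 0.30, so its direction differed between the library pairs, and that difference itself was not tested.

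Elovl4, whose promoter window held the GTGGGAA letters, makes the ultra-long fatty acids that define acylceramides, and is also active in sebaceous and eye lipids. The gene is on chromosome 9 (ENSMUSG00000032262, chr9:83778692-83806277, minus strand, mm10). Elovl4 had 1233, 656, 440 and 379 CPM in NcstnΔKC replicates 1 to 4, against 1736, 319, 682 and 405 CPM in normal replicates 1 to 4. Replicate 1 stood above the other libraries in both groups, and the groups overlapped. The log2 fold change was -0.21 ± 0.57 (SE), with a 95% interval of -1.50 to 1.07 and an adjusted p of 0.780. Changes within that interval, in either direction, were not excluded. Without normal replicate 1 the value turned to 0.59, still short of the threshold. The log2 ratio of Elovl1 to Elovl4 counts was -2.64 ± 0.37 in NcstnΔKC libraries and -2.51 ± 0.91 in normal libraries (SD, n = 4 each), with p = 0.829 by the exact permutation test, also after adjustment over 3 ratios.

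Elovl4 nevertheless had the highest mean FPKM of the 9 genes in both groups, with 201 ± 99.3 FPKM in NcstnΔKC libraries and 198 ± 180 FPKM in normal libraries (SD, n = 4 each). Of the summed FPKM of the elongases Elovl1 to Elovl7, it made up 71.5% ± 3.66 in NcstnΔKC libraries and 59.3% ± 3.52 in normal libraries, with no overlap between the groups. Elovl1 made up 8.01% ± 1.59 in NcstnΔKC libraries and 7.98% ± 3.56 in normal libraries. Among the other elongases, Elovl7 made up 12.5% ± 2.29 in NcstnΔKC libraries and 3.53% ± 1.53 in normal libraries, whereas Elovl5 made up 5.17% ± 1.81 in NcstnΔKC libraries and 15.7% ± 2.28 in normal libraries.

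Ugcg encodes glucosylceramide synthase, which attaches the sugar that ceramides carry into lamellar granules. It lies on chromosome 4 (ENSMUSG00000028381, chr4:59189257-59222833, plus strand, mm10). Ugcg had 394, 365, 333 and 333 CPM in NcstnΔKC replicates 1 to 4, against 88.7, 92.5, 95.7 and 84.6 CPM in normal replicates 1 to 4. The gap between the groups was wider than the whole range within either. The means were 356 ± 29.3 CPM in NcstnΔKC libraries and 90.4 ± 4.83 CPM in normal libraries (SD, n = 4 each). Ugcg rose by 1.98 ± 0.11 (SE) on the log2 scale, or 3.94-fold, with a 95% interval of 1.72 to 2.23 and an adjusted p of 4.34e-05. It had the smallest standard error of the 9 genes, and it gave 1.92 in the libraries with Xist alone and 2.07 in those without.

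Abca12 encodes the transporter that loads glucosylceramides into lamellar granules, and its loss in humans causes harlequin ichthyosis. Its locus is on chromosome 1 (ENSMUSG00000050296, chr1:71242276-71414910, minus strand, mm10). Abca12 had 1568, 982, 698 and 602 CPM in NcstnΔKC replicates 1 to 4, against 429, 341, 481 and 406 CPM in normal replicates 1 to 4. All NcstnΔKC libraries were above all normal libraries, and the spread lay mainly within the NcstnΔKC group. The means were 963 ± 435 CPM in NcstnΔKC libraries and 414 ± 58.1 CPM in normal libraries (SD, n = 4 each). Abca12 rose by 1.22 ± 0.29 (SE) on the log2 scale, or 2.32-fold, with a 95% interval of 0.55 to 1.88 and an adjusted p of 0.00974. Without NcstnΔKC replicate 1 it was 0.88, and in the libraries with Xist alone 0.59, past the threshold both times.

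Pnpla1 encodes the transacylase that moves linoleate onto the ceramide to make acylceramide. It lies on chromosome 17 (ENSMUSG00000043286, chr17:28858411-28890308, plus strand, mm10). Pnpla1 had 142, 70.3, 47.9 and 43.5 CPM in NcstnΔKC replicates 1 to 4, against 44.6, 72.6, 49.8 and 37.9 CPM in normal replicates 1 to 4. NcstnΔKC replicate 1 stood alone above the range of the other libraries. The log2 fold change was 0.57 ± 0.38 (SE), with a 95% interval of -0.30 to 1.43 and an adjusted p of 0.254, and without NcstnΔKC replicate 1 it was 0.08. Pnpla1 overlaps its antisense gene Pnpla1os over 1098 bases, and since no strand setting is given, reads of the pair cannot be told apart there.

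Alox12b and Aloxe3 encode the lipoxygenases that act in turn on the linoleate of acylceramide, the first adding oxygen and the second rearranging the product. They are neighbours on the plus strand of chromosome 11 (mm10), Aloxe3 at chr11:69125896-69149115 (ENSMUSG00000020892) and Alox12b at chr11:69156989-69169792 (ENSMUSG00000032807), with 7873 bases and 0 annotated genes between them. Alox12b had 184, 111, 79.8 and 70.5 CPM in NcstnΔKC replicates 1 to 4, against 54.4, 23.0, 76.5 and 45.2 CPM in normal replicates 1 to 4. The groups overlapped only in that normal replicate 3 was above NcstnΔKC replicate 4. The means were 111 ± 51.2 CPM in NcstnΔKC libraries and 49.8 ± 22.2 CPM in normal libraries (SD, n = 4 each). Alox12b rose by 1.16 ± 0.40 (SE) on the log2 scale, or 2.23-fold, with a 95% interval of 0.26 to 2.05 and an adjusted p of 0.0411. This call was close to the threshold: it was lost without NcstnΔKC replicate 1 (0.81), NcstnΔKC replicate 2 (1.16), normal replicate 1 (1.27), normal replicate 2 (0.97) or normal replicate 4 (1.16), and with the replicate block (1.17). It was also lost in the libraries with Xist alone (0.34), in those without (1.93) and with Xist as a covariate (1.11), and over 27 alternatives its adjusted p ran from 5.34e-05 to 0.281.

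Aloxe3 had 158, 95.2, 71.3 and 67.0 CPM in NcstnΔKC replicates 1 to 4, against 66.5, 37.5, 86.1 and 65.0 CPM in normal replicates 1 to 4. Normal replicate 3 lay within the NcstnΔKC range, and the other normal libraries lay below it. The log2 fold change was 0.61 ± 0.32 (SE), with a 95% interval of -0.12 to 1.34 and an adjusted p of 0.151. The log2 ratio of Alox12b to Aloxe3 counts was 0.22, 0.23, 0.16 and 0.07 in NcstnΔKC replicates 1 to 4, against -0.29, -0.70, -0.17 and -0.52 in normal replicates 1 to 4, with no overlap. These counts too are not corrected for gene length. By mean FPKM, Alox12b was above Aloxe3 in NcstnΔKC libraries (50.0 and 13.0) and in normal libraries (18.1 and 6.91). That order rests on a longer gene model for Aloxe3. In NcstnΔKC replicate 1, 2187 Alox12b counts gave 75.7 FPKM and 1882 Aloxe3 counts gave 19.3 FPKM. FPKM therefore does not settle which gene had more transcripts. The means of the log2 ratio were 0.17 ± 0.07 in NcstnΔKC libraries and -0.42 ± 0.24 in normal libraries (SD, n = 4 each), a difference of 0.59 (p = 0.0286 by an exact permutation test, two-sided, which with 70 arrangements can give no smaller p, and 0.0429 after adjustment over 3 ratios). Leaving out NcstnΔKC replicate 1 or 2 gave 0.58 and 0.57, each with an adjusted p of 0.0857. Here too the groups stayed separate, and leaving out any other library, with as many arrangements, gave an adjusted p of 0.0429. The result for this ratio thus depended on NcstnΔKC replicates 1 and 2.

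**Figure D3:**
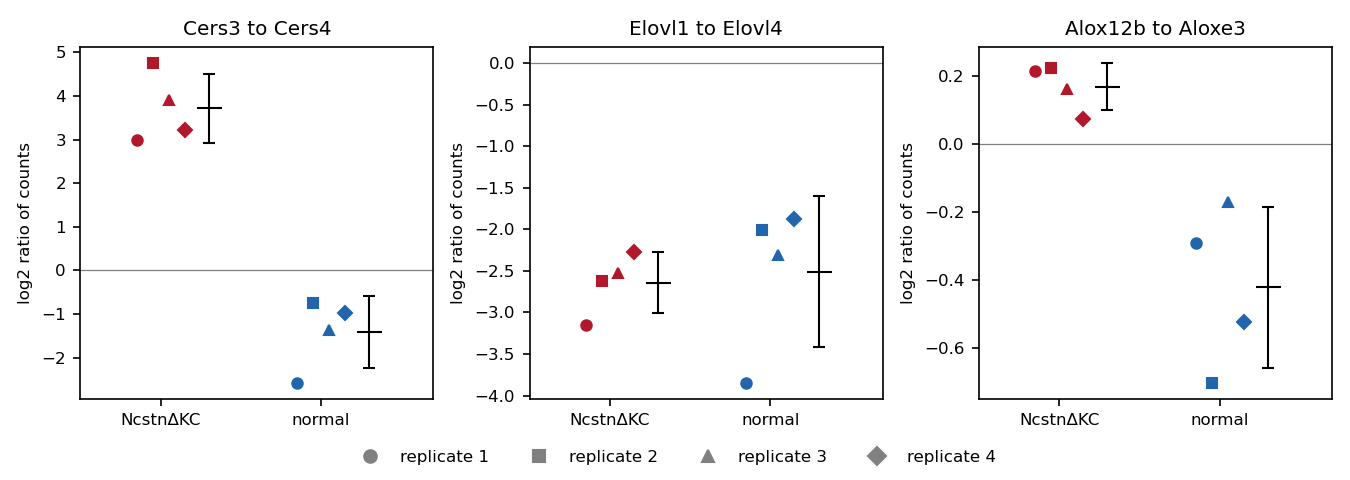
Log2 ratio of the counts of 2 genes within each library (vertical axis), for the ceramide synthases Cers3 and Cers4, the elongases Elovl1 and Elovl4, and the lipoxygenases Alox12b and Aloxe3, with NcstnΔKC in red on the left, normal in blue on the right and bars at the mean ± SD (n = 4). The groups are separate for Cers3 to Cers4 and for Alox12b to Aloxe3, and overlap for Elovl1 to Elovl4. Counts are not corrected for gene length, so the sign of a ratio does not show which gene had more transcripts.

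Among 7 lipoxygenases, Alox12b made up 41.2% ± 12.7 of the summed FPKM in NcstnΔKC libraries and 20.7% ± 8.18 in normal libraries, and Aloxe3 made up 10.8% ± 2.95 in NcstnΔKC libraries and 7.91% ± 1.94 in normal libraries. The other abundant member was Alox12e, the epidermal-type lipoxygenase gene of mice, with 34.7% ± 10.5 in NcstnΔKC libraries and 56.6% ± 7.07 in normal libraries. Alox12, the platelet-type gene, made up 0.351% ± 0.206 in NcstnΔKC libraries and 4.00% ± 1.08 in normal libraries. The family summed to 119 ± 10.5 FPKM in NcstnΔKC libraries and 86.6 ± 15.3 FPKM in normal libraries (SD, n = 4 each). As for the ceramide synthases, these sums are scaled by library total only, under which the median log2 fold change of all genes was 0.29. The shares again depend on the gene model lengths.

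Ordered by mean FPKM in NcstnΔKC libraries, Elovl4 was followed by Ugcg (67.6 ± 3.38), Abca12 (66.6 ± 25.1), Cers3 (61.5 ± 26.7) and Alox12b (50.0 ± 19.2), then by Elovl1 (20.8 ± 4.80), Pnpla1 (17.2 ± 8.83) and Aloxe3 (13.0 ± 4.56), and last by Cers4 (0.897 ± 0.761). The libraries of neighbours in this order overlapped except between Elovl4 and Ugcg, between Alox12b and Elovl1, and between Aloxe3 and Cers4. In normal libraries Elovl4 was followed by Abca12 (23.3 ± 3.52), Elovl1 (18.7 ± 4.28), Alox12b (18.1 ± 7.63), Ugcg (13.7 ± 0.728), Cers3 (10.6 ± 2.26), Pnpla1 (9.44 ± 2.44), Aloxe3 (6.91 ± 2.09) and Cers4 (5.77 ± 5.07), and only Elovl4 was separate from its neighbour. Ugcg and Cers3 thus stood at ranks 2 and 4 in NcstnΔKC libraries and at ranks 5 and 6 in normal libraries. Ranks within a group depend on the gene model lengths, and the low rank of Cers4 goes with a longer model than that of Cers3.

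How many of the 9 genes passed depended on the scaling of libraries, which moved all genes together. With TMM scaling, which sets libraries so that most genes do not differ, the median log2 fold change of all genes was -0.02, with 3360 genes higher and 3555 lower. With total-count scaling the median was 0.29, with 5323 higher and 2224 lower, and 6 of the 9 passed, beside 48.1% of all genes. Scaling to the basal keratinocyte genes gave a median of -0.53, with 983 higher and 6236 lower, and 3 of the 9 passed (Cers3, Cers4 and Ugcg), beside 46% of all genes. Scaling to the differentiated keratinocyte genes gave a median of 0.77, with 5619 higher and 786 lower, and 7 of the 9 passed, all but Elovl1 and Elovl4, beside 40.8% of all genes. On log2 FPKM with 1 added the median was 0.20, and 6 of the 9 passed, beside 47.6%.

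Relative to basal keratinocyte genes, Cers3 was higher by 1.78 and Ugcg by 1.47, Cers4 was at -3.24, and Abca12 at 0.76 and Alox12b at 0.73 no longer passed. Relative to differentiated keratinocyte genes, Cers3 was higher by 2.85, Ugcg by 2.74, Alox12b by 1.93, Abca12 by 1.89, Aloxe3 by 1.36 and Pnpla1 by 1.09, and Cers4 was lower at -2.20. Cers3, Ugcg and Cers4 therefore kept their direction and passed under all 4 scalings named here. The values of Elovl1 and Elovl4 were below 0 with TMM scaling (-0.16 and -0.21) and basal scaling (-0.62 and -0.58), and above 0 with total-count scaling (0.14 and 0.02) and differentiated scaling (0.59 and 0.54), and did not pass in any of them.

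**Figure D4:**
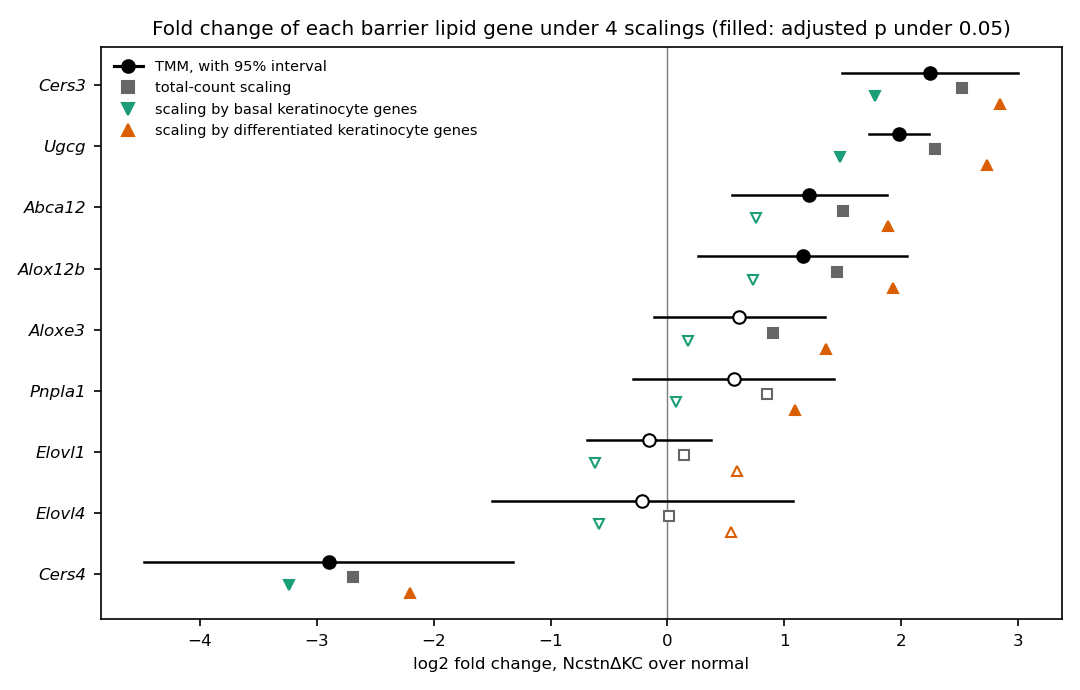
Log2 fold change of each gene, NcstnΔKC over normal (horizontal axis), under 4 scalings of the libraries, with the 95% interval for TMM scaling and filled symbols for an adjusted p under 0.05. Cers3, Ugcg and Cers4 are filled under all 4, and Elovl1 and Elovl4 lie on both sides of 0 and are filled under none.

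The replicates of the NcstnΔKC group differed in a common way. By CPM, replicate 1 was the highest of its group in 9 of 9 genes, and replicate 4 was the lowest in 6. In the normal group replicate 3 was highest in 5 and replicate 1 in 3. By FPKM, replicate 1 was highest in 8 genes in the NcstnΔKC group and in 6 in the normal group, where replicate 3 was highest in 2. NcstnΔKC replicate 1 also stood apart in other genes. Its leukocyte markers summed to 234 CPM, against 617 to 945 CPM in the rest of its group. Its muscle markers summed to 7350 CPM, against 753 to 2885 CPM. On the second principal component of log2 CPM over all genes tested it was at 83.4, against -28.8 to -19.4. Without NcstnΔKC replicate 1, 4 of the 9 genes passed, all but Alox12b of the 5, beside 50.5% of all genes. Without that library and normal replicate 2, 5 of the 9 passed, beside 50.4%, with Elovl1 in place of Alox12b. With the replicate block 4 of the 9 passed, beside 38.1%.

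In the libraries with Xist alone, 5 of the 9 genes passed, beside 51.7% of 16219 genes: Cers3 (1.85), Ugcg (1.92) and Abca12 (0.59) were higher, and Cers4 (-2.89) and Elovl1 (-0.64) lower. In the libraries without Xist 0 of the 9 passed with edgeR, where 0.0255% of 15668 genes did. At an unadjusted p under 0.05, 6 of the 9 and 3921 of all genes passed there. These libraries include NcstnΔKC replicate 1, whose part in these counts was not tested. The log2 fold changes without Xist were 2.51 for Cers3, 2.07 for Ugcg, 1.73 for Abca12, 1.93 for Alox12b, 1.28 for Aloxe3, 0.86 for Pnpla1 and -2.88 for Cers4. Cers3, Cers4, Ugcg and Abca12 thus had the direction of the full comparison in both library pairs. So did Alox12b (0.34 with Xist), Pnpla1 (0.10 with Xist) and Elovl4 (-0.37 with and -0.12 without Xist). Elovl1 and Aloxe3 differed in direction between the pairs.

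For the other genes of the route, 54 were listed, and of the 52 tested 19 were higher and 10 lower in NcstnΔKC skin, which is 55.8% beside 44.1% of all genes. Their median log2 fold change was 0.31, beside -0.02, and turned to -0.19 with basal keratinocyte scaling, beside -0.53. Sptssb and Elovl2 had too few reads to be tested. Of the 29 called, 22 stayed past the threshold whichever library was left out. The matching share of all called genes was not computed, so this count shows nothing particular to the route. With basal keratinocyte scaling 8 were higher and 14 lower, beside 983 and 6236 of all genes. With differentiated keratinocyte scaling 26 were higher and 4 lower, beside 5619 and 786. The balance of directions thus moved with the scaling, as it did over all genes. In the libraries without Xist 0 of the 52 passed with edgeR, where 4 of 15668 genes did, and 22 of the 52 had an unadjusted p under 0.05, beside 3921 of all genes. Below, CPM values are means ± SD (n = 4 each) and log2 fold changes are given ± SE.

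In ceramide synthesis, 11 of 12 genes were tested, of which 5 were higher and 2 lower, beside 21.4% and 22.7% of all genes, with a median log2 fold change of 0.56. With basal keratinocyte scaling 2 were higher and 3 lower, beside 983 and 6236 of all genes, and the median was 0.10. Degs2 and Degs1 encode the desaturases of the last step, Degs2 also hydroxylating the base, and had the lowest p among the higher genes. Degs2 averaged 16.1 ± 3.42 CPM in NcstnΔKC libraries and 3.11 ± 0.729 CPM in normal libraries and rose by 2.35 ± 0.25 (adjusted p = 2.44e-04). Degs1 averaged 133 ± 48.4 CPM in NcstnΔKC libraries and 49.3 ± 8.21 CPM in normal libraries and rose by 1.43 ± 0.24 (adjusted p = 0.00204). Sptlc1 and Sptlc2, the core subunits of serine palmitoyltransferase, and Kdsr, the next enzyme, were higher by 0.93, 0.85 and 0.56. None of these 3 passed with basal keratinocyte scaling (0.46, 0.34 and 0.10), and Kdsr also failed when any of 7 of the 8 libraries was left out. Cers1, the ceramide synthase best known from brain and muscle, averaged 0.979 ± 0.460 CPM in NcstnΔKC libraries and 4.06 ± 2.02 CPM in normal libraries and fell by 2.01 ± 0.48 (adjusted p = 0.00953). Sptlc3, the alternative catalytic subunit, was lower at -1.01 ± 0.34 (adjusted p = 0.0376) and lost the call when any of 6 of the 8 libraries was left out. With differentiated keratinocyte scaling Cers1 (-1.32) and Sptlc3 (-0.25) did not pass.

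In fatty acid elongation and hydroxylation, 2 of 13 genes tested were higher and 5 lower, beside 21.4% and 22.7% of all genes, with a median of -1.11. With basal keratinocyte scaling 1 was higher and 6 lower, beside 983 and 6236 of all genes, and with differentiated keratinocyte scaling 2 were higher and 3 lower, beside 5619 and 786. The median was below 0 under all 4 scalings (-0.30 with differentiated keratinocyte scaling). Elovl7, an elongase, averaged 161 ± 50.1 CPM in NcstnΔKC libraries and 53.2 ± 16.7 CPM in normal libraries and rose by 1.60 ± 0.27 (adjusted p = 0.00198). Hacd3, a dehydratase of the elongation cycle, was higher by 0.76 ± 0.26 (adjusted p = 0.0400) and lost the call when any of 7 of the 8 libraries was left out. Tecr, the reductase that ends the cycle, averaged 70.9 ± 5.24 CPM in NcstnΔKC libraries and 153 ± 50.3 CPM in normal libraries and fell by 1.11 ± 0.22 (adjusted p = 0.00373), but did not pass with differentiated keratinocyte scaling (-0.30). Elovl5, an elongase of polyunsaturated fatty acids, averaged 45.0 ± 8.73 CPM in NcstnΔKC libraries and 209 ± 153 CPM in normal libraries and fell by 2.22 ± 0.45 (adjusted p = 0.00446), or by 1.52 without normal replicate 1. Elovl6, Hacd2 and Fa2h, the last of which hydroxylates fatty acids in sebaceous and epidermal lipid, were lower at -2.73, -2.03 and -4.54. Their sizes rested on the replicate 1 libraries: without normal replicate 1 they were -1.86, -1.20 and -3.11, and without NcstnΔKC replicate 1 Elovl6 was at -3.35 and Fa2h at -8.66. Fa2h lost the call when any of 6 of the 8 libraries was left out. As for Cers4, the sebocyte markers were lower in NcstnΔKC libraries and their part was not tested.

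In the acylceramide and lipoxygenase route, 4 of 13 genes were higher and 2 lower, beside 21.4% and 22.7% of all genes, with a median of 0.49. With basal keratinocyte scaling 2 were higher and 2 lower, beside 983 and 6236 of all genes, and the median was -0.04. With total-count scaling 6 were higher and 1 lower, beside 5323 and 2224 of all genes. Abhd5 encodes the partner that Pnpla1 needs for acylceramide synthesis. Abhd5 averaged 116 ± 26.4 CPM in NcstnΔKC libraries and 48.8 ± 2.70 CPM in normal libraries and rose by 1.25 ± 0.16 (adjusted p = 6.03e-04). Sdr9c7, a dehydrogenase that acts after the lipoxygenases, averaged 179 ± 58.5 CPM in NcstnΔKC libraries and 58.6 ± 13.6 CPM in normal libraries and rose by 1.61 ± 0.26 (adjusted p = 0.00171). Nipal4 and Lipk were higher by 0.71 and 1.35, and lost the call when any of 4 and any of 5 of the 8 libraries was left out, and with basal keratinocyte scaling (0.22 and 0.90). Alox12 averaged 1.60 ± 0.771 CPM in NcstnΔKC libraries and 17.0 ± 2.14 CPM in normal libraries and fell by 3.39 ± 0.34 (adjusted p = 2.07e-04). Alox12e averaged 148 ± 32.0 CPM in NcstnΔKC libraries and 226 ± 48.7 CPM in normal libraries and was lower at -0.61 ± 0.21 (adjusted p = 0.0392), but this call was lost when any of 6 of the 8 libraries was left out, and the value was 0.27 with differentiated keratinocyte scaling.

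In sphingolipid processing and turnover, 8 of 15 genes were higher and 1 lower, beside 21.4% and 22.7% of all genes, with a median of 0.66. With basal keratinocyte scaling 3 were higher and 3 lower, beside 983 and 6236 of all genes, with a median of 0.16, and with differentiated keratinocyte scaling 10 were higher and 0 lower, beside 5619 and 786. Gba2, a glucosylceramidase, averaged 74.7 ± 33.3 CPM in NcstnΔKC libraries and 20.1 ± 1.75 CPM in normal libraries and rose by 1.90 ± 0.28 (adjusted p = 0.00100). Smpd3 and Smpd1, which make ceramide from sphingomyelin, were higher by 2.13 and 1.11, and B4galt5, which extends the product of Ugcg to lactosylceramide, was higher by 1.95. The ceramidases Asah1 and Acer2 were higher by 0.90 and 0.99, and the lyase Sgpl1 by 0.66. With basal keratinocyte scaling, Smpd1 (0.62), Asah1 (0.35), Acer2 (0.53) and Sgpl1 (0.16) did not pass. Acer1, the ceramidase known from differentiated epidermis and sebaceous glands, averaged 21.1 ± 6.84 CPM in NcstnΔKC libraries and 69.3 ± 40.1 CPM in normal libraries and fell by 1.72 ± 0.40 (adjusted p = 0.00838), and was at -0.93 and short of the threshold with differentiated keratinocyte scaling.

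**Figure D5:**
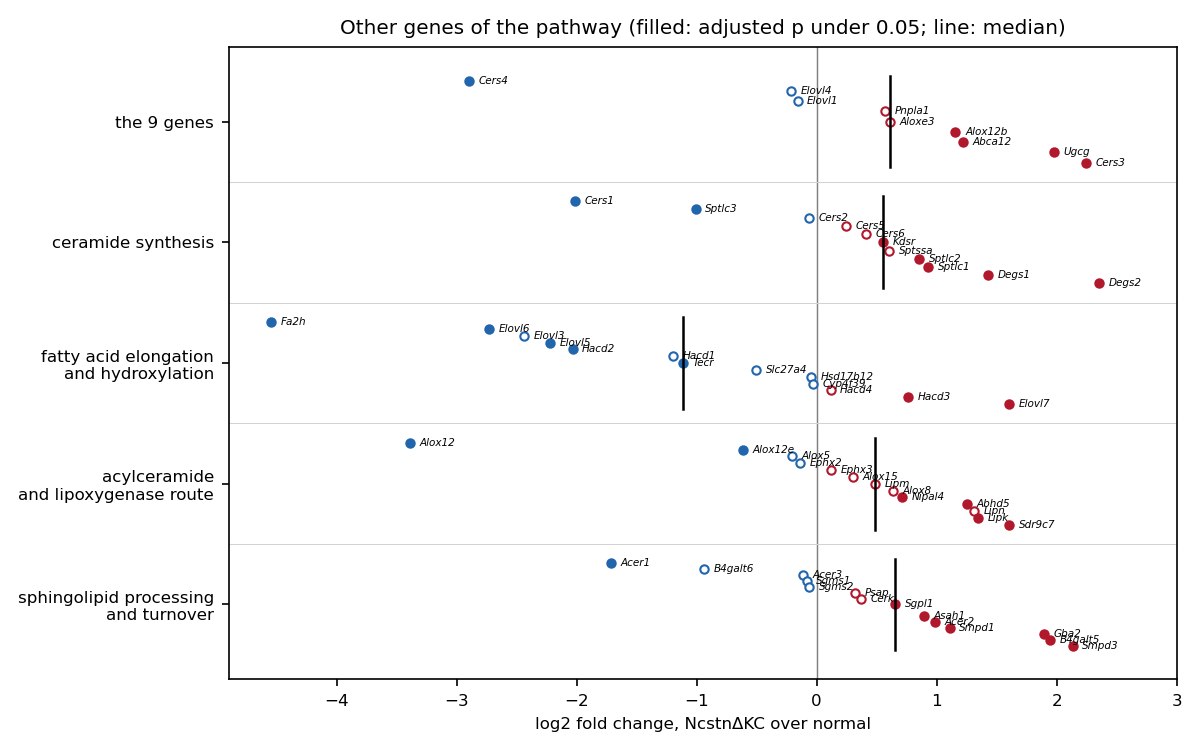
Log2 fold change, NcstnΔKC over normal (horizontal axis), of the 9 genes and of the tested genes of the 4 lists of the route, with filled symbols for an adjusted p under 0.05, red above 0 and blue below, and a black line at each median over all tested genes of the group. A gene not reported here is not drawn. With this TMM scaling the medians lie above 0 in all groups but fatty acid elongation and hydroxylation (-1.11), and with basal keratinocyte scaling that of the acylceramide and lipoxygenase route turns to -0.04.

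Profiles over the 8 libraries were compared as log2 CPM with 0.5 added, each centred on its mean, by their root mean square distance, among 13675 genes with a mean of at least 1 CPM. This describes likeness and is no test. Nearest to each other among the 9 were Abca12 and Alox12b (0.32), Alox12b and Aloxe3 (0.33), Abca12 and Aloxe3 (0.33) and Cers3 and Ugcg (0.39), and farthest apart were Cers3 and Cers4 (2.62). In the nearest pairs, other genes lay nearer to each gene than its partner did. For Abca12 and Alox12b these were 194 and 9 genes, and for Alox12b and Aloxe3 13 and 180. For Abca12 and Aloxe3 they were 245 and 181, and for Cers3 and Ugcg 43 and 218. None of the 9 was among the 2 nearest genes of another. The nearest were Blmh and Slc38a2 for Cers3 (0.22 and 0.25), Cdcp1 and Rps7 for Ugcg (0.12 and 0.14) and Slc35d1 and Csta1 for Abca12 (0.12 and 0.15). For the lipoxygenases they were Rab38 and Abcc3 for Alox12b (0.20 and 0.25) and Ptk6 and Card14 for Aloxe3 (0.13 and 0.14). Elovl1 was nearest to Il20rb and Spry2 (0.09 and 0.10), Elovl4 to Rdh1 and Sdr16c6 (0.16 and 0.29) and Pnpla1 to March3 and Tmprss11f (0.12 and 0.18). Cers4 was nearest to Tmem229a and Mc5r (0.33 and 0.38), of which Mc5r, a melanocortin receptor of sebaceous glands, is on the sebocyte marker list. Rps7 has many processed copies in the genome, so its counts are uncertain.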

How the data were processed

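The authors deposited raw whole-number counts per Ensembl gene and FPKM values (counts over gene model length and library total) for each library in 1 table. The submitters' processing notes name TopHat2 2.0.9, TopHat and HTSeq and the builds mm10 and hg38, without order or settings. The strand setting is not given in the sources used here. Coordinates are those of the mm10 table. Depth was 5835422 to 12893174 counts per library.

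Counts were filtered with filterByExpr, scaled by TMM and compared with edgeR 4.0.16 (R 4.3.3, quasi-likelihood test, robust, two-sided) over 15684 genes, adjusted by Benjamini-Hochberg and called under 0.05. SE is the log2 fold change over the root of F. CPM is the count over the scaled library size. Ratios of counts had 0.5 added and were compared by exact permutation. The procedure was checked on simulated data. limma 3.58.1, DESeq2 1.42.0, matplotlib 3.10.9 with pandas 2.3.3, numpy 2.4.6 and Python 3.11.15 were used for alternatives and plots.

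The 9 genes, the lists and the alternatives were chosen with earlier results of these data known. Beside the 9 genes, the text names the 2 genes of lowest p called in each direction in each list, the 2 nearest profiles of each gene, and any other list gene where a group is described. The alternatives were upper-quartile, DESeq2, total-count and keratinocyte scaling, limma-voom, the Wald test, other filters, limma-trend on log2 FPKM, a replicate block, Xist as a covariate or with and without it, removal of other tissues' genes, thinning, and leaving out libraries. The replicate numbers were not taken as pairs. A gene named by the rule is not reported here, though it is counted in its list.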

Additional observations from a re-analysis of the deposited data

Results flagged for a closer look

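Cers4 stood apart in 1 library of each group. NcstnΔKC replicate 1 had 39.7 CPM, and its gap to the next library was 0.860 of the range of the NcstnΔKC group. Normal replicate 1 had 269 CPM, and its gap to the next library was 0.873 of the range of the normal group. Both gaps are above the 95% critical value for 4 samples in Dixon's test. Among 24 groups of 4 values checked, these 2 were past it, and chance gives about 1 in 20. These are also the libraries with the highest summed sebocyte markers of their groups, with 407 CPM in NcstnΔKC replicate 1 and 2069 CPM in normal replicate 1, whose part in the Cers4 values was not tested. Cers4 was lower in NcstnΔKC skin without either library, at -3.79 on the log2 scale without NcstnΔKC replicate 1 and -2.11 without normal replicate 1.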

How the results depend on the processing

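Of the 9 genes, Cers3, Cers4 and Ugcg passed under 26 of 27 alternatives and Abca12 under 25, with their directions kept in all 27, whereas Alox12b passed under 16. Among all genes tested, 6915 passed, against 4 in the libraries without Xist and 3903 at a log2 change of at least 1. Of the 9, 3 passed with basal keratinocyte scaling and 0 without Xist (edgeR, 6 at an unadjusted p under 0.05). Of the other listed genes, 0 passed without Xist and 19 at a log2 change of at least 1, against 29.

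The difference between the groups in the log2 ratio of Cers3 to Cers4, 5.13 as reported, was 5.13 with the replicate block (adjusted p = 0.188), 4.73 with Xist alone, 5.53 without Xist, 5.60 without NcstnΔKC replicate 1 and normal replicate 2, and 4.74 to 5.38 with each library left out. The difference for Alox12b to Aloxe3 was 0.59, 0.46, 0.72, 0.48 and 0.50 to 0.68 in that order. Tests within replicate numbers (smallest p 0.125) or on 2 against 2 libraries (0.333) cannot pass. Without NcstnΔKC replicate 1 and normal replicate 2, the adjusted p of the permutation test was 0.15 for each of these ratios. That setting also leaves too few arrangements to pass. The difference for Elovl1 to Elovl4 turned from below 0 to 0.045 without Xist and 0.21 without those 2 libraries, and ran from -0.57 to 0.082 with each library left out.

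Elovl1 turned positive with total-count scaling (0.14), differentiated keratinocyte scaling (0.59), log2 FPKM with 1 or 0.1 added (0.15 each) and without Xist (0.30), and ran from -0.35 to 0.016 with each library left out. Elovl4 gave 0.016, 0.54, 0.28 and 0.28 under the first 4, and -0.67 to 0.59 with each library left out. Aloxe3 was -0.089 with Xist alone. The cause of these shifts was not tested.

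With the replicate block 5981 genes passed, among them 4 of the 9. Correlations of same-numbered libraries' deviations were -0.02, -0.03, -0.01 and 0.22, so the numbers were not read as pairs. At least 1 CPM in 4 libraries kept the same 15684 genes, so at least 5 CPM was added after seeing the data and gave 5 of 9, beside 5718 of 12239 genes. Depth differed between groups, and thinning to the smallest library left 5 of 9, beside 6282 of 14621 genes.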
